A study of Mus musculus with 2 samples.

Results

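The proteasome genes described here are the protein-coding genes whose symbol begins with Psma, Psmb, Psmc or Psmd followed by a digit, without the immunoproteasome genes Psmb8, Psmb9 and Psmb10. This rule found 37 of 55536 genes, of which 22028 are protein-coding. Of the 37, 31 encode subunits of the complex: 7 of the alpha ring, 7 of the beta ring, 6 ATPases, 3 non-ATPase base subunits and 8 lid subunits. The name "constitutive subunit" does not apply to the other 6. Psmd5, Psmd9 and Psmd10 are chaperones that help the base assemble and leave before the complex is complete, Psma8 and Psmb11 are tissue-specific paralogues, and Psmc3ip is named for binding Psmc3 but acts in meiotic recombination.

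The source was activated regulatory T cells, whose polyadenylated RNA was sequenced. They came from a male mouse aged 4 months of the strain labelled Foxp3CreERT2 x Rosa26YFP, a name that stands for a tamoxifen-inducible Cre under Foxp3 control and a YFP reporter at Rosa26. The labels trace these primary cells to a hematopoietic cell of the bone marrow and name no treatment. The 2 libraries are technical replicates 1 and 2 of 1 biological replicate. They form 1 group with no control, so each SD below is over n = 2 technical libraries and no value bears on other animals.

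Library 1 held 15076048 reads assigned to genes and library 2 held 14635787. The 37 genes took 0.514% of reads in library 1 and 0.525% in library 2. All 6 regulatory T cell and T cell markers were expressed, among them Foxp3, the lineage's defining transcription factor, at 23.8 and 20.9 TPM in libraries 1 and 2, and Cd3e, a chain of the T cell receptor complex, at 598 and 698 TPM. Of 8 markers of other blood cells, 2 reached 1 TPM in both libraries. These were Hbb-bs, with 6.27 and 4.74 TPM, and Cd79a, with 1.26 and 1.70 TPM in libraries 1 and 2. Lyz2 had 10 and 42 reads, and Itgax and Ncr1 had no read. The summed level of the 8 was 10.4 TPM in library 1 and 10.6 TPM in library 2. TPM is a gene's estimated reads per length, scaled to a fixed sum over all genes.

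The proteasome degrades proteins tagged with ubiquitin. Its barrel-shaped core particle stacks outer alpha rings, which gate the entrance, on inner beta rings, which cut the substrate. A regulatory particle caps the barrel: a base, with a ring of ATPases that unfolds the substrate, and a lid that removes ubiquitin. Only Psmb5, Psmb6 and Psmb7 among the constitutive beta subunits cut peptide bonds. In lymphocytes, Psmb8, Psmb9 and Psmb10 can take their places, which changes the peptides that are made for display on MHC class I molecules.

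The cutting residue of each catalytic subunit is a threonine that becomes the first residue of the mature chain once a propeptide is removed. The coding stretches around it are shown because they mark which genes compete for the same place in the ring. Each has 45 bases of the GENCODE M21 coding sequence, 5′ to 3′, with the codon of that threonine in capitals. The first pair fills the beta 1 place, the next pair the beta 2 place, and the last 3 genes the beta 5 place.
Psmb6: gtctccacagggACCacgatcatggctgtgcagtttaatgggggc
Psmb9: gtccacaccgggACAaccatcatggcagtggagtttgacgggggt
Psmb7: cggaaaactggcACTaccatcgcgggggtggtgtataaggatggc
Psmb10: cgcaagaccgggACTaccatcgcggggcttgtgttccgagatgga
Psmb5: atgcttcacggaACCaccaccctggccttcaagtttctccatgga
Psmb8: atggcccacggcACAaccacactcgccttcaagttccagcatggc
Psmb11: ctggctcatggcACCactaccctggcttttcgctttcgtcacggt

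The whole coding sequences were 61.1% identical between Psmb6 and Psmb9, 61.5% between Psmb7 and Psmb10, 63.7% between Psmb5 and Psmb8, and 49.9% between Psmb5 and Psmb11. Psma7 and its paralogue Psma8 were 74.2% identical. None of these 5 pairs shared a run of 50 bases, the length of the reads, so an error-free read that lies within the coding sequence separates the members of each pair.

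Of the 37 genes, 35 reached 1 TPM in both libraries, as did 46.2% of all protein-coding genes. A level of 10 TPM was reached in both by 34, against 29.5% of protein-coding genes, and 100 TPM by 25, against 5.25%. All 25 were among the 31 subunits. The median expressed protein-coding gene had 17.7 TPM in library 1 and 18.5 TPM in library 2, and the median of the 31 subunits was 149 and 158 TPM. Within each library, 26 of the 31 subunits lay within 2-fold of that median.

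**Figure D1:**
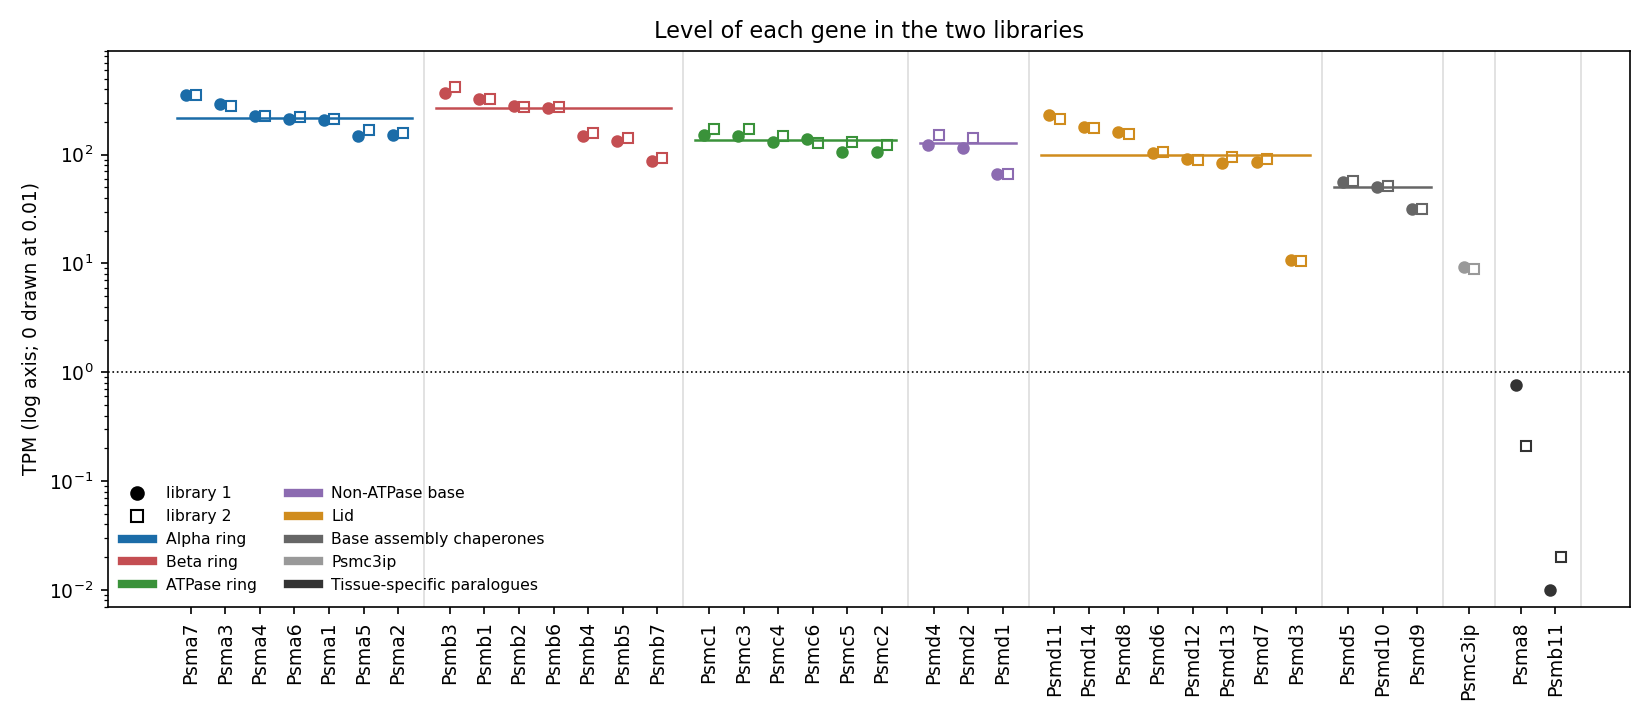
TPM on a log axis of the 37 genes by place in the complex, as a filled circle for library 1 and an open square for library 2; horizontal lines are group medians (mean of both libraries) and the dotted line is 1 TPM. Core subunits lie mostly above the regulatory subunits, Psmd3 lies at 10.7 TPM far below the rest of the lid, and Psma8 and Psmb11 lie below 1 TPM.

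The 7 alpha subunits had a median of 213 TPM in library 1 and 219 TPM in library 2 (216 ± 4.4, SD, n = 2 technical libraries). Psma7, the alpha 4 subunit, was highest at 352 and 353 TPM in libraries 1 and 2. Psma3, the alpha 7 subunit, had 294 and 282 TPM. In gene TPM both lay above the other 5 in each library. With transcripts annotated as protein_coding alone, however, Psma3 had 84.6 and 73.1 TPM and was the lowest of the ring. Per length in a second deposited table, of whole-number counts, only Psma5 lay below Psma3. Psma4 had 225 and 228 TPM, Psma6 had 213 and 219 TPM, and Psma1 had 210 and 214 TPM in libraries 1 and 2. Psma6 and Psma1 overlapped between the libraries, and Psma4 lay above both. Psma5, with 148 and 169 TPM, and Psma2, with 151 and 158 TPM, were the lowest of the ring in gene TPM. By that measure the highest member of the ring stood 2.31 ± 0.10 times above the lowest.

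The beta ring had the highest median TPM of the 5 groups (in the whole-number table, the ATPases did). Its median was 267 TPM in library 1 and 274 TPM in library 2 (271 ± 5.14). Its spread was wider, with its highest member 4.34 ± 0.21 times above its lowest. Psmb3, a structural subunit, had the highest gene TPM of all 37 genes, at 367 and 418 TPM in libraries 1 and 2. Most of its coding sequence is shared with pseudogenes, and per length in the whole-number table only Psmb5 of the ring lay below it. In gene TPM the structural subunits Psmb1, with 327 and 322 TPM, and Psmb2, with 282 and 275 TPM, came next in the ring. The catalytic subunits were spread over the range: Psmb6, which cuts after acidic residues, had 267 and 274 TPM, Psmb5, which cuts after hydrophobic residues, 135 and 143 TPM, and Psmb7, which cuts after basic residues, 87.5 and 93.1 TPM in libraries 1 and 2. Psmb7 was the lowest core subunit in gene TPM, but not with protein_coding transcripts alone, where Psmb4 and Psma3 lay below it, nor in the whole-number table. Psmb4, another structural subunit, had 149 and 159 TPM.

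The catalytic subunits stood in different ratios to the immunoproteasome genes that fill the same places. At the beta 5 place, Psmb5 with 135 and 143 TPM stood against Psmb8 with 674 and 727 TPM in libraries 1 and 2, a ratio of 0.198 ± 0.0019, so Psmb8 was 5.05-fold higher. At the beta 2 place, Psmb7 with 87.5 and 93.1 TPM stood against Psmb10 with 278 and 283 TPM, a ratio of 0.322 ± 0.011, so Psmb10 was 3.11-fold higher. At the beta 1 place, Psmb6 with 267 and 274 TPM was close to Psmb9 with 242 and 255 TPM, a ratio of 1.09 ± 0.019. Constitutive transcripts made up 16.5%, 24.4% and 52.2% of the summed TPM of each pair at the beta 5, beta 2 and beta 1 places, in that order.

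**Figure D2:**
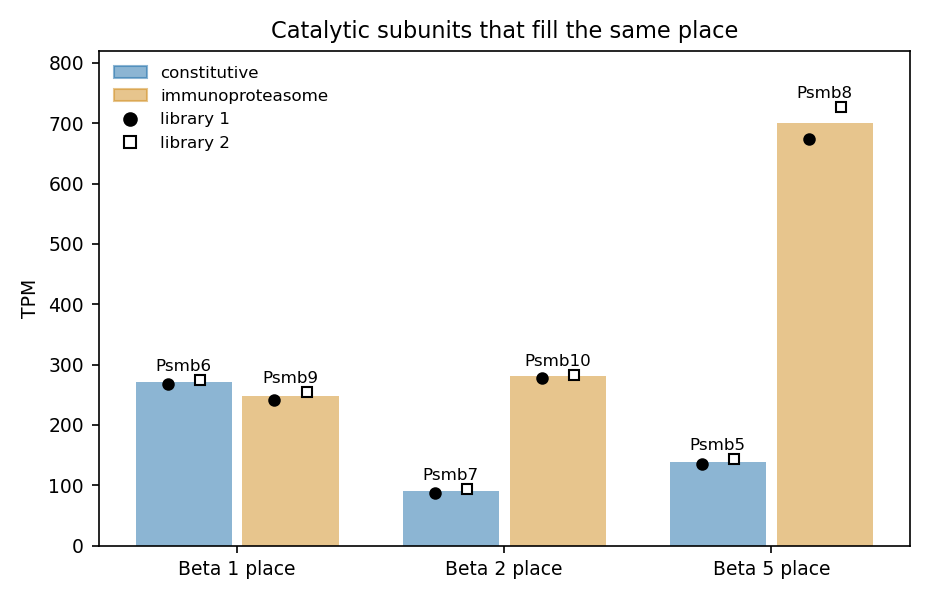
TPM of the constitutive (blue) and immunoproteasome (orange) gene of each catalytic place; bars are means of 2 libraries, with library 1 as a filled circle and library 2 as an open square. The immunoproteasome gene is several times higher at the beta 2 and beta 5 places, and both genes of the beta 1 place lie between 242 and 274 TPM.

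The pair ratios depended on which transcripts were counted. Transcripts annotated as protein_coding carried 100% of the TPM of Psmb5, 99.2% of Psmb7 and 91.2% of Psmb6, but 55.9% of Psmb8, 42.5% of Psmb10 and 38.1% of Psmb9. With these transcripts alone, the ratio was 0.354 for Psmb5 over Psmb8, 0.751 for Psmb7 over Psmb10 and 2.61 for Psmb6 over Psmb9. In the whole-number table, counted on GENCODE M4, the ratios per length were 0.232, 0.365 and 1.37. Psmb5 and Psmb7 lay below their counterparts and Psmb6 above in all 3 measures. In reads not divided by length, Psmb6 over Psmb9 was 0.809 in library 1 and 0.780 in library 2.

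In gene TPM the 6 ATPases were the most even group, with a median of 134 TPM in library 1 and 139 TPM in library 2 (137 ± 3.30) and the highest only 1.42 ± 0.03 times above the lowest. Psmc1, Psmc3 and Psmc4, whose C-terminal tails dock into the alpha ring and open its gate, had 152 and 173 TPM, 149 and 173 TPM, and 130 and 148 TPM in libraries 1 and 2. Psmc6 had 139 and 127 TPM, Psmc5 106 and 130 TPM, and Psmc2 106 and 123 TPM. Each overlapped with the next in this order between libraries, except Psmc3 with Psmc4. The coefficient of variation over the 6 was 15.6%, against 30.7% over the alpha ring and 46.9% over the beta ring. With protein_coding transcripts alone Psmc6 averaged 48.5 ± 2.13 TPM, and the ring was then less even.

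In the base, Psmd4, a receptor for ubiquitin chains, had 123 and 152 TPM in libraries 1 and 2. Psmd2, the docking site of shuttle proteins that bring substrates, had 115 and 141 TPM. Psmd1, a large scaffold, was the lowest of the 3 with 65.7 and 66.1 TPM, and it lay below every other subunit except Psmd3 in both libraries. A further base subunit outside the naming rule, the ubiquitin receptor Adrm1, had 66.3 and 67.3 TPM.

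Without Psmd3, the lid spanned 2.59 ± 0.29-fold. Psmd11, whose protein clamps the lid to the core, was highest in gene TPM with 232 and 213 TPM in libraries 1 and 2. With protein_coding transcripts alone it had 155 and 158 TPM and overlapped with Psmd8, at 157 and 142 TPM. Psmd14, the metalloprotease that cuts ubiquitin from the substrate, had 180 and 177 TPM, and its catalytically inactive partner Psmd7 had 85.6 and 92.0 TPM. Psmd8 had 162 and 156 TPM, Psmd6 104 and 106 TPM, Psmd12 91.4 and 89.5 TPM, and Psmd13 83.4 and 95.2 TPM. Sem1, a small lid protein outside the naming rule, had 153 and 138 TPM. Psmd11, Psmd14 and Psmd8 lay above the other lid genes in TPM in both libraries.

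Psmd3, a scaffold of the lid (chr11:98682554-98695979 on the plus strand of mm10), was the lowest of the 31 subunits in both deposited gene tables. It had 289 and 254 reads and 10.8 and 10.6 TPM in libraries 1 and 2, the 35.5th percentile of expressed protein-coding genes. The next lowest subunit was Psmd1 at 65.9 ± 0.28 TPM. The median of the other 7 lid subunits was 9.70 times the level of Psmd3 in library 1 and 9.99 times in library 2. In the whole-number table the same ratio was 9.57 and 11.99, and it was 9.18 and 10.6 for M21 reads per coding base.

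No 50-base window of the Psmd3 coding sequence occurred in another gene, and the 1 annotated gene overlapping it, Gm12356 on the opposite strand, had no read in either library. A single protein_coding transcript carried 90.9% and 92.8% of its TPM in libraries 1 and 2. Its coding GC content was 57.3%, and the part of GC content in its level was not tested. The coefficient of variation over the regulatory particle was 39.6% over 17 subunits and 31.1% over the 16 without Psmd3, left out after its value was seen.

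Core subunits were higher than regulatory subunits. Their medians were 219 and 115 TPM in library 1 and 224 and 130 TPM in library 2, a ratio of 1.81 ± 0.14, and 9 of the 14 core subunits lay above every ATPase in both libraries. The ratio was 1.83 with protein_coding transcripts alone and 2.17 for reads per coding base. In the whole-number table it was 0.926, below 1. Among the 5 core and 9 regulatory subunits with no window found in another gene, it was 1.90 in TPM and 1.44 in the whole-number table. The order of core and regulatory levels therefore turned with the table over all 31 subunits, and not over the 14 with no coding window found in another gene. The part of read sharing in this was not tested. Levels also ran with length: Spearman's rho of mean TPM with coding length was -0.67 over the 31 subunits, which share the same libraries, and -0.07 with coding GC content.

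Outside the complex, the base chaperones had lower TPM than any subunit except Psmd3. Psmd5 had 56.0 and 57.6 TPM, Psmd10 50 and 51.1 TPM, and Psmd9 31.9 and 31.5 TPM in libraries 1 and 2. Their order was the same in both libraries. Of the 5 chaperones of core assembly, Pomp, which matures the beta ring, had 448 and 461 TPM, and Psmg1, Psmg2, Psmg3 and Psmg4 lay between 15.9 and 52.8 TPM.

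The tissue-specific paralogues did not reach 1 TPM. Psma8, the alpha subunit of male germ cells that replaces Psma7, had 8 and 3 reads (0.77 and 0.21 TPM) in libraries 1 and 2, against 3702 and 3492 reads of Psma7. For scale, a count of 0 would allow up to 0.290 and 0.211 TPM of Psma8 (3 reads), a limit that covers counting error only. Neither count of Psma8 was 0, so this limit does not bound its level. Of 6 male germ cell markers none reached 1 TPM. Sycp3 and Tex101 had no read. Dazl had 5 and 0 reads in libraries 1 and 2, Sycp1 and Stra8 each had 4 and 0, and Ddx4 had 0 and 3. The list summed to 1.2 TPM in library 1 and 0.09 TPM in library 2. The reads of Psma8 did not pass the test between libraries (exact binomial test, adjusted p = 0.445), and the part of germ cell RNA in them was not tested. In RNA pooled over many cells, fewer cells of a type and less RNA per cell cannot be told apart.

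Psmb11, the beta 5 subunit of cortical thymic epithelium, had 0 reads in library 1 and 1 read in library 2 (0 and 0.02 TPM), within a limit of 0.103 and 0.0611 TPM. Psmb5, which it replaces in that epithelium, had 1418 and 1423 reads. Of 6 markers of that epithelium, Ctsl, a protease also made by other cells, passed 1 TPM in both libraries, and Foxn1, the lineage's defining factor, had 1 and 0 reads. The list summed to 4.22 and 3.69 TPM.

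Psmc3ip had 123 and 100 reads and 9.31 and 8.94 TPM in libraries 1 and 2, between the paralogues and Psmd3. Its partner Mnd1, with which it stimulates strand exchange, had 13 and 6 reads, and the meiotic recombinase Dmc1 had 2 and 1 reads. Protein_coding transcripts held 40.9% of the TPM of Psmc3ip in library 1 and 18.7% in library 2, and the rest lay on retained-intron and nonsense-mediated decay transcripts.

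Genes that work with the proteasome gave the levels a frame. The activator subunits Psme1, with 529 and 495 TPM, and Psme2, with 741 and 745 TPM in libraries 1 and 2, lay above all 31 subunits, while the nuclear activator Psme3 had 28.1 and 30.2 TPM and Psme4 had 24.0 and 18.6 TPM. The inhibitor Psmf1 had 50.5 and 58.7 TPM. Of the enzymes that bind the complex, the deubiquitinase Usp14 had 63.1 and 67.9 TPM, and the unfoldase Vcp had 111 and 130 TPM. Nfe2l1, the transcription factor that raises proteasome genes when degradation is blocked, had 14.9 and 13.0 TPM. The polyubiquitin gene Ubb had 3806 and 4127 TPM.

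Most of the reads of these genes were assigned to protein-coding transcripts. Over the 31 subunits and the 3 chaperones, the median share of TPM on such transcripts was 94.1%. The leading transcript was the same in both libraries in 33 of 34, and was protein_coding in both in 32. The share was below 50% in 3. In Psmb4 it was 17.8% in library 1 and 23.8% in library 2, with 42.9 ± 2.63% on a transcript of 666 bases and 35.6 ± 1.24% on one of 292 bases, both annotated with a retained intron. In Psma3 it was 28.8% and 25.9%, and in Psmc6 36.1% and 37.2%.

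**Figure D3:**
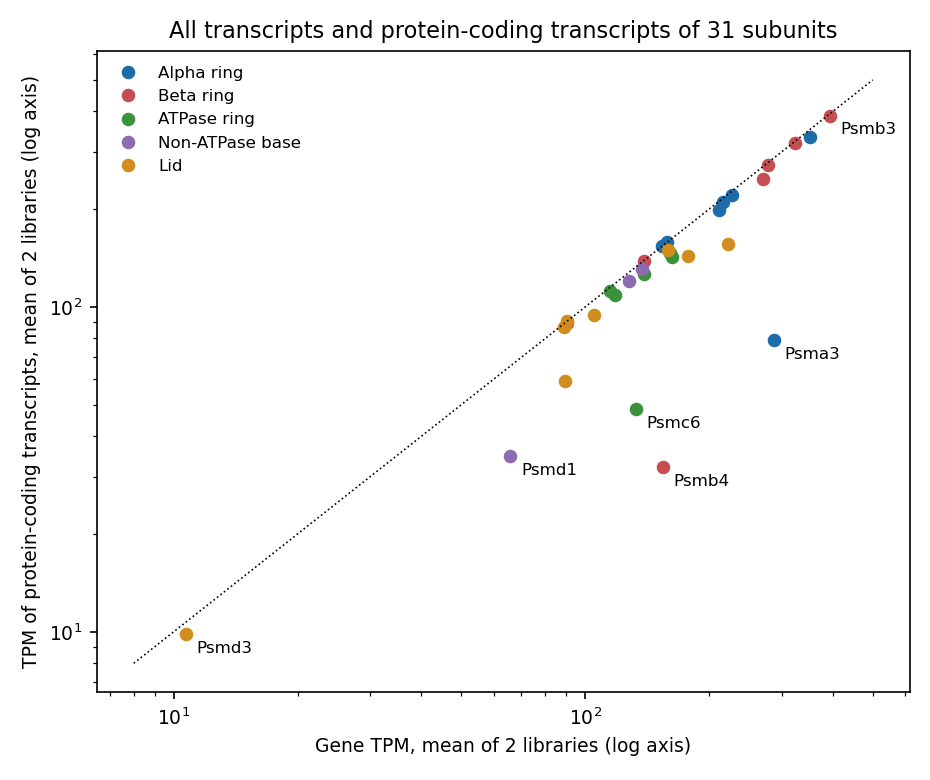
Mean TPM over both libraries of each of 31 subunits for all transcripts (horizontal, log axis) and for protein_coding transcripts only (vertical, log axis), coloured by place in the complex; the dotted line marks equal values. Most subunits lie on or just below the line, Psmb4, Psma3 and Psmc6 lie well below it, and Psmd3 is lowest on both axes.

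With protein_coding transcripts alone, Psmb4 averaged 32.2 ± 8.0 TPM and was second lowest after Psmd3 with 9.83 ± 0.07 TPM. In the whole-number table Psmb4 had 659 and 692 counts and stood at 480 and 484 on the length-scaled level in libraries 1 and 2, where Psmd3 stood at 35.8 and 29.1. That level divides by the M21 effective length of the gene, 573 and 610 bases for Psmb4, which the short transcripts lower. Exons that flank a retained intron also lie in the mature transcript, so the shares are estimates of the authors' model.

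Processed pseudogenes, intronless copies of spliced transcripts, affected several members. Windows of 50 coding bases were also present in another annotated gene for 17 of the 31 subunits and made up over 50% of the windows in 4: Psma3 with 85.7%, Psma5 with 79.2%, Psmb3 with 70.3% in 7 genes, and Psmb5 with 65.0%. The copy of Psma3 on chromosome 6, Gm13835, held the 665 coding bases from base 104 to base 768 without a difference (100% identity). The first 90 of these bases are shown as the sequence that both genes carry. No read lying within it can be told apart.
Psma3 and Gm13835: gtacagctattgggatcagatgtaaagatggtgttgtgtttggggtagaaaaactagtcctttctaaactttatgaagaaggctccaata

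Gm13835 was assigned 943 and 1036 reads (120 and 139 TPM) in libraries 1 and 2, beside 3659 and 3321 for Psma3 itself (chr12:70974621-70996347, mm10). The model's own SD of the Psma3 count was 79.9 and 73.6 reads, the largest of all members, against 0 for Psma1, Psma6 and Psmb2, which share no window. The levels of Psma3 and Gm13835 are therefore uncertain. Psmd13 overlaps in position the pseudogene Gm15542 on the same strand, which was assigned 1520 and 1530 reads, more than the 1059 and 1116 of Psmd13. No coding window of Psmd13 was found in Gm15542, and the model's SD of the Psmd13 count was 0.11 and 0.38 reads.

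The whole-number table kept few reads of the 4 members with over 50% of windows shared. Psma3 had 236 and 245 counts there, 0.0645 and 0.0738 of its M21 reads in libraries 1 and 2. Psma5 kept 0.113 and 0.109, Psmb3 0.101 and 0.0913, and Psmb5 0.233 and 0.228. Members with little sharing kept more, except Psmb1. Psmd1, with 8.75% of windows in another gene, kept 0.709 and 0.723, the most of the 31. Psmd13, with 1.2% shared, kept 0.683 and 0.636. Psmb1, with 7.12% shared, kept 0.210 and 0.224, less than Psmb5 in both libraries, and Psma2, with 15.4%, kept 0.284 and 0.292. Over the 31 subunits, Spearman's rho between the kept share and the share of windows in other genes was -0.60, a description of genes in the same libraries. The table was also compressed at high counts over all genes: the median kept share in library 1 was 0.445 at 100 to 1000 M21 reads per kilobase and 0.182 at 3000 to 10000. The part of each in these values was not tested.

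**Figure D4:**
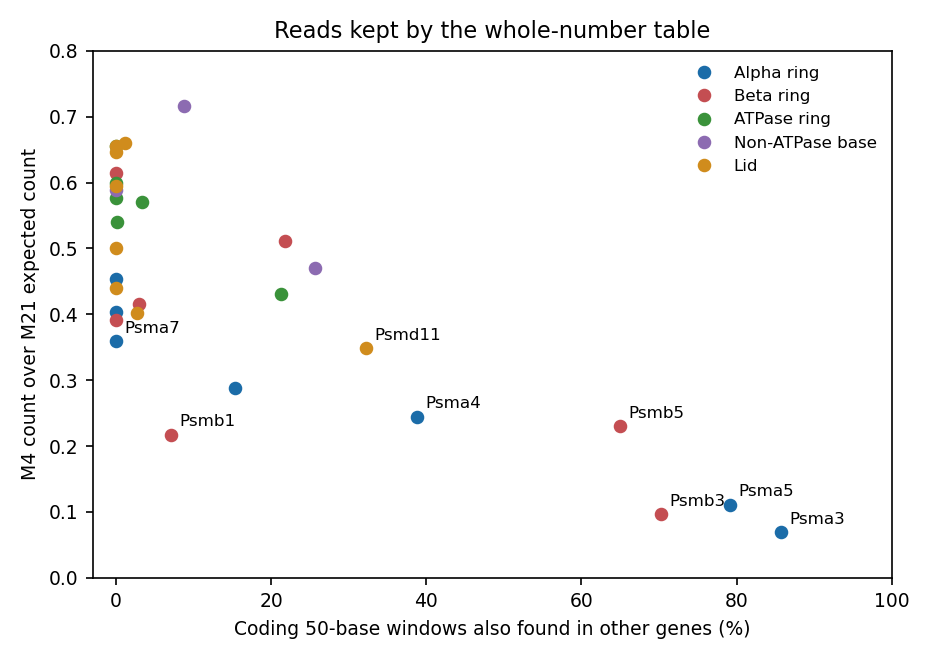
Share of M21 reads kept by the whole-number M4 table (mean of both libraries) against the percentage of 50-base coding windows found in other annotated genes, for 31 subunits coloured by place in the complex. Psma3, Psma5, Psmb3 and Psmb5, with over 60% of windows shared, all lie below 0.24, and subunits with no shared window lie between 0.36 and 0.66.

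The libraries were compared with each other by an exact two-sided binomial test on reads with Benjamini-Hochberg adjustment over 17271 genes, called at an adjusted p under 0.05. This compares the libraries and no biological condition. It called 11 of 36 tested members (30.6%), beside 24.3% of all genes. Among the 6773 genes within the read range of the 31 subunits the share was 33.6%, beside 35.5% of the subunits. That range begins at Psmd3, with 289 and 254 reads in libraries 1 and 2, far fewer than any other subunit. It therefore takes in genes of lower depth than most subunits, and a comparison at matched depth was not made. Of the 11, 3 were higher in library 1 (11.6% of all genes) and 8 lower (12.7%). With DESeq2 size factors the split was 5 and 8, beside 2194 and 2039 of all 17271 genes. The edgeR exact test at an assumed dispersion of 0.01 called none of the members, at an adjusted or an unadjusted p under 0.05. Over all genes it called 491 of 17271 at an adjusted p under 0.05. Every call below therefore marks a difference between libraries beyond counting error, with no other spread allowed for.

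Among the called members, Psmd2 had the largest log2 ratio in size, with 2986 reads in library 1 and 3803 in library 2 (-0.39, exact binomial test, adjusted p = 1.98e-26). In the whole-number table it had 1448 and 1738 counts (-0.26, exact binomial test, adjusted p = 3.64e-05). It was the 1 member called there, beside 1092 of all 10978 genes tested. Psmc5 followed with 1666 and 1945 reads (-0.27, exact binomial test, adjusted p = 9.06e-07) and Psmd4 with 1933 and 2254 reads (-0.26, exact binomial test, adjusted p = 1.12e-07). In the ATPase ring 5 of 6 were called, beside 24.3% of all genes: Psmc2, Psmc3, Psmc4 and Psmc5 were lower in library 1, with log2 ratios of -0.16 to -0.27, and Psmc6 was higher at 0.15. Psma5 and Psmb3 were lower, both at -0.15, and Psma3 and Psmd8 were higher at 0.10 and 0.15. The calls of Psma3 and Psmb3 rest on genes with shared reads, and their sign turned in the whole-number table.

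GC content ran with these differences. Subunits called lower in library 1 had a median coding GC content of 52.4%, those called higher 42.2%, and those not called 48.8%. Psmd8, called higher with 55.8%, went the other way. Spearman's rho between the log2 ratio and the GC content of the longest-coding transcript was -0.45 over the 31 subunits and -0.33 over 5006 protein-coding genes with 1000 reads or more. Over the latter genes, those called lower had a median of 52.1% and those called higher 45.1%. The part of GC content in the members' differences was not tested.

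**Figure D5:**
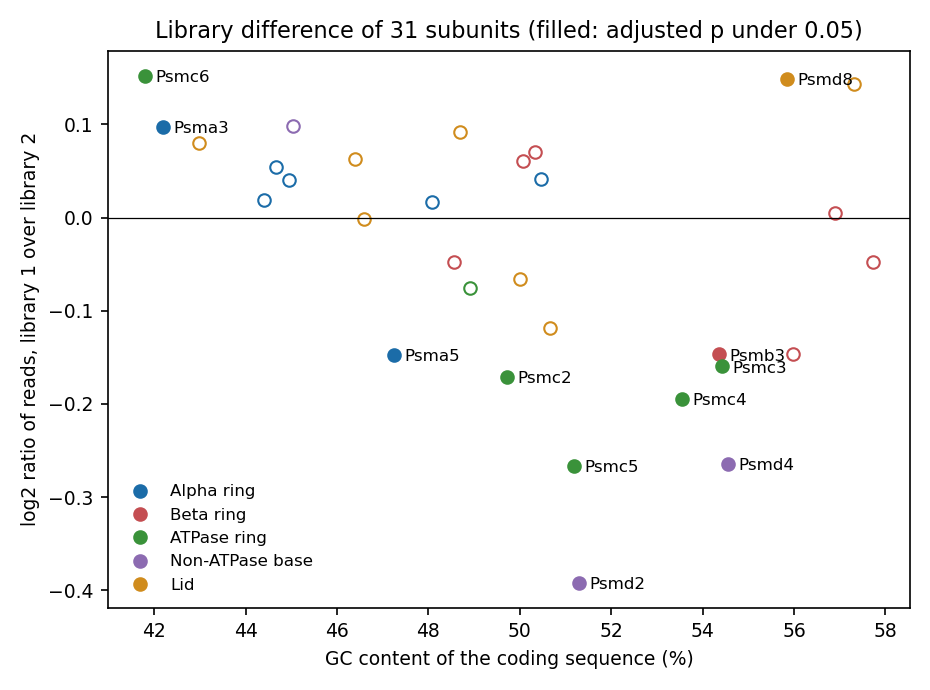
Log2 ratio of reads, library 1 over library 2, against the GC content of the coding sequence for 31 subunits coloured by place in the complex; filled circles have an adjusted p under 0.05 in the exact binomial test. Psmd2 is lowest at -0.39, 4 ATPases lie between -0.16 and -0.27, and Psmc6 and Psma3, with the lowest GC content, lie above 0.

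Promoters were compared because 26 of the 31 subunits lay within 2-fold of their median level. RefSeq promoter windows on GRCm38.p6, from 250 bases before to 50 bases after the start, were matched by symbol for 30 of the 37 genes. The letters CCGGAA, the core bound by ETS factors, occurred on either strand in the windows of 16 of these 30 genes (53.3%), against 16.7% of all 27025 genes with a window, 35.6% of expressed protein-coding genes and 38.3% of protein-coding genes at 100 TPM or more. No test was made of this difference. The GC box GGGCGG occurred in 18 genes (60%), against 69.6% of expressed protein-coding genes, and the CCAAT box CCAAT in 13 (43.3%), against 43.9%. TATAAA occurred in 3 (10%), against 8.09%. AAGATGG, the core bound by the factor YY1, occurred in 6 (20%), against 9.22%, and against 11.9% of protein-coding genes at 100 TPM or more. That difference was not tested either. Throughout, a gene with several windows counted once if any matched, and matches of different motifs may overlap.

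These stretches before the start show CCGGAA in capitals (its reverse complement where the motif lies on the other strand) in genes of 4 groups, all in GRCm38.p6.
Psma6, chr12:55398752-55398797, plus strand: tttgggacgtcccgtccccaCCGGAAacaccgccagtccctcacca
Psmc5, chr11:106256070-106256115, plus strand: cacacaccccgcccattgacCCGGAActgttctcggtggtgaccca
Psmd2, chr16:20651550-20651595, plus strand: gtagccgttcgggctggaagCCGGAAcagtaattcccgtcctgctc
Psmd6, chr14:14120965-14121010, minus strand: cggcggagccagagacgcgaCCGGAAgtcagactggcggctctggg

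The antioxidant response element was searched as TGACNNNGC, the letters that Nfe2l1 binds in proteasome promoters. It occurred in the windows of Psmb5, Psmb6, Psmc6, Psmd12 and Psmd9 (16.7% of the 30), against 16.9% of expressed protein-coding genes. It shares its first letters with the cyclic AMP response element TGACGTCA, which occurred in none of the 30 and in 3.82% of those genes. The match of Psmb5, in capitals, lies 39 bases before the start.
Psmb5, chr14:54618014-54618062, minus strand: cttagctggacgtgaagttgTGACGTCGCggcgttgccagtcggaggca
A match is a run of letters and was not tested as a binding site.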

How the data were processed

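The authors deposited a gene and a transcript table per library on mm10 and GENCODE M21, per the file headers and labels. No source used here names the tool that quantified them. Deposited values used were the expected count, an estimate of reads that need not be whole, TPM, the isoform percent (how much of a gene's TPM falls on a transcript), and the posterior SD of each count and the effective length, recorded as score columns. The TPM bounds the authors deposited do not bracket their TPM and were not used. A further deposited table holds whole-number counts per gene on GENCODE M4, with counter and filters not given.

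Symbols, types, coordinates (1-based) and sequences came from GENCODE M21. Rows naming no gene (0.142% of reads in library 1, 0.186% in library 2) were left out. Expected counts were rounded. Reads were compared by an exact two-sided binomial test against library 1's share of reads (50.7%), over genes with at least 10 summed reads, and log2 ratios add 0.5 to each count. It was tested on simulated data. Length-scaled M4 levels are counts per M21 effective length scaled to the TPM sum of shared protein-coding genes. Python 3.11.15, scipy 1.17.1, pandas 2.3.3, Biopython 1.88, edgeR 4.0.16 and DESeq2 1.42.0 were used.

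The members, lists and tests were chosen with earlier results of these data known. All members are named, with companion genes from fixed lists and their pseudogenes or overlapping genes. The libraries are technical replicates. The adjusted p-values measure how far 2 libraries of 1 sample differ beyond counting error, and no spread between animals. No source used here states whether strand was read, so members with an antisense neighbour, such as Psmb7 with Nek6 and Psmc3 with Slc39a13, are uncertain. Genes were called expressed at 1 TPM in both libraries, and neighbours in the order of levels apart only where the ranges of both libraries did not overlap.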

Additional observations from a re-analysis of the deposited data

How the results depend on the processing

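The 11 members called between libraries became 13 with DESeq2 size factors and 11 with TMM or with no count filter. Over all genes, 4198 of 17271 were called in the main test, 4233 with DESeq2 size factors and 4206 with TMM. With no count filter 3696 of 29872 were called. The edgeR exact test at a dispersion of 0.01 called 0 members, also 0 at an unadjusted p under 0.05 (17 in the binomial test), and the M4 counts called 1, Psmd2. Over all genes, edgeR called 491 of 17271 at an adjusted p under 0.05, and the M4 counts called 1092 of 10978. The log2 ratios of Psma3 and Psmb3 turned to -0.055 and 0.043 with M4 counts. Psma3 lost its call with TMM. With M4 counts per kilobase the medians of the alpha ring, beta ring, ATPases, non-ATPase base and lid were 282, 358, 383, 304 and 326, on a scale of their own, and with TPM over protein-coding genes alone 265, 332, 168, 156 and 122. Core over regulatory median was 0.926 with M4 counts, 2.17 for reads per coding base, and 1.44 for M4 counts of subunits with no shared window. The coefficient of variation over the core was 0.538 with M4 counts and 0.509 with protein_coding transcripts only. Over the regulatory particle it was 0.301, 0.426 and, without Psmd3, 0.311. Psmb6 over Psmb9 was 1.37 with M4 counts and 2.61 with protein_coding transcripts only, Psmb7 over Psmb10 0.365 and 0.751, and Psmb5 over Psmb8 0.232 and 0.354. The cause of these shifts was not tested. With 2 libraries, leaving out 1 gives the value of the other, which by construction lies within the SD, so it says nothing about stability. The settings per coding base, without shared windows and without Psmd3 were added after the data were seen. No paired analysis was possible because there is 1 group. Counting error limits genes of few reads, Psma8 and Psmb11 among them.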
